A study of Mus musculus with 6 samples.

Results

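The 33 genes described here are the semaphorins, their plexin and neuropilin receptors and the plexin domain-containing genes Plxdc1 and Plxdc2, chosen by gene symbol from the 15423 genes of a hippocampal RNA-seq table. They were 20 semaphorins, 9 plexins, 2 neuropilins and the 2 Plxdc genes, and all 33 passed the filter on low counts and were tested. The RNA came from 3 control (CTR) C57BL/6J mice, bred and kept in alternating 12 h light and 12 h dark phases, and from 3 Short Day (SD) C57BL/6J mice, whose parents were moved to 8 h light and 8 h dark phases before mating and which stayed on these through gestation and until postnatal day 42. No transgene, deletion or drug was used in either group, while no source used here states the age at dissection or the litters, so p-values measure the spread between these mice only. The paper's RNA-seq methods also do not give the time of day or the phase of the light cycle at dissection. Mice are called by the numbers in their titles, 1, 2 and 5 for CTR and 2, 5 and 6 for SD. The tissue is named as hippocampus in the methods of the paper, while the extraction protocol of the labels speaks of cells and spheroids. All 18 listed markers of hippocampal principal neurons were measured, among them Prox1 and C1ql2 of dentate granule cells, and their summed level was 1876 to 1923 CPM (counts scaled to a common library size) in CTR mice and 1806 to 1964 CPM in SD mice.

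Semaphorins are guidance proteins that share an extracellular sema domain. Those of class 3 are secreted, those of classes 4, 5 and 6 span the membrane, and Sema7a is held at the membrane by a GPI anchor. Most secreted semaphorins bind a neuropilin that signals through a class A plexin, whereas most membrane semaphorins bind a plexin directly. The cytoplasmic part of a plexin is a GTPase-activating protein for Rap and R-Ras proteins, and its activation collapses the growth cone or prunes a branch or spine. In the hippocampus the system is known for the lamination of mossy fibers by Sema6a, Sema6b, Plxna2 and Plxna4, for pruning of the infrapyramidal tract by Sema3f, Nrp2 and Plxna3, and for a brake of Sema5a and Plxna2 on synapses of adult-born granule cells.

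Calls used the cutoffs named in the methods of the paper, a p before adjustment of 0.05 or less together with a log2 fold change of 0.58 or more in size, and the quasi-likelihood test of edgeR. Of the 33 members 2 were called (6.06%), Sema3b higher and Plxdc1 lower in SD mice, where the same cutoffs called 2.98% of all 15345 genes tested, 2.1% higher and 0.88% lower. DESeq2 called Plxdc1 alone, against 2.05% of all genes, 0.584% of them lower. The median log2 fold change was 0.017 over the members and 0.0015 over all genes tested, and 27 of the 33 members (81.8%) lay within 0.2 of 0, against 75% of all genes. By the p cutoff alone there were 5 members (15.2%), 4 of them lower and 1 higher, against 8.32% of all genes, 3.68% lower and 4.65% higher. That count rested on single mice, from 1 member when SD mouse 5 was left out to 9 when CTR mouse 5 was. Over all genes the calls by both cutoffs moved as well, from 457 to 369 and to 707 in these 2 fits. The share of all genes past the p cutoff alone was not counted there. In DESeq2 4 members (12.1%) passed the p cutoff, against 7.61% of all genes. No member, and no gene at all, had a Benjamini-Hochberg adjusted p under 0.05 in edgeR, and DESeq2 gave no member and 56 genes (0.363%). In 3 members all SD mice lay below all CTR mice and in none did they lie above, against 12.3% of all genes that were separated in either direction, 6.2% below and 6.11% above.

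**Figure D1:**
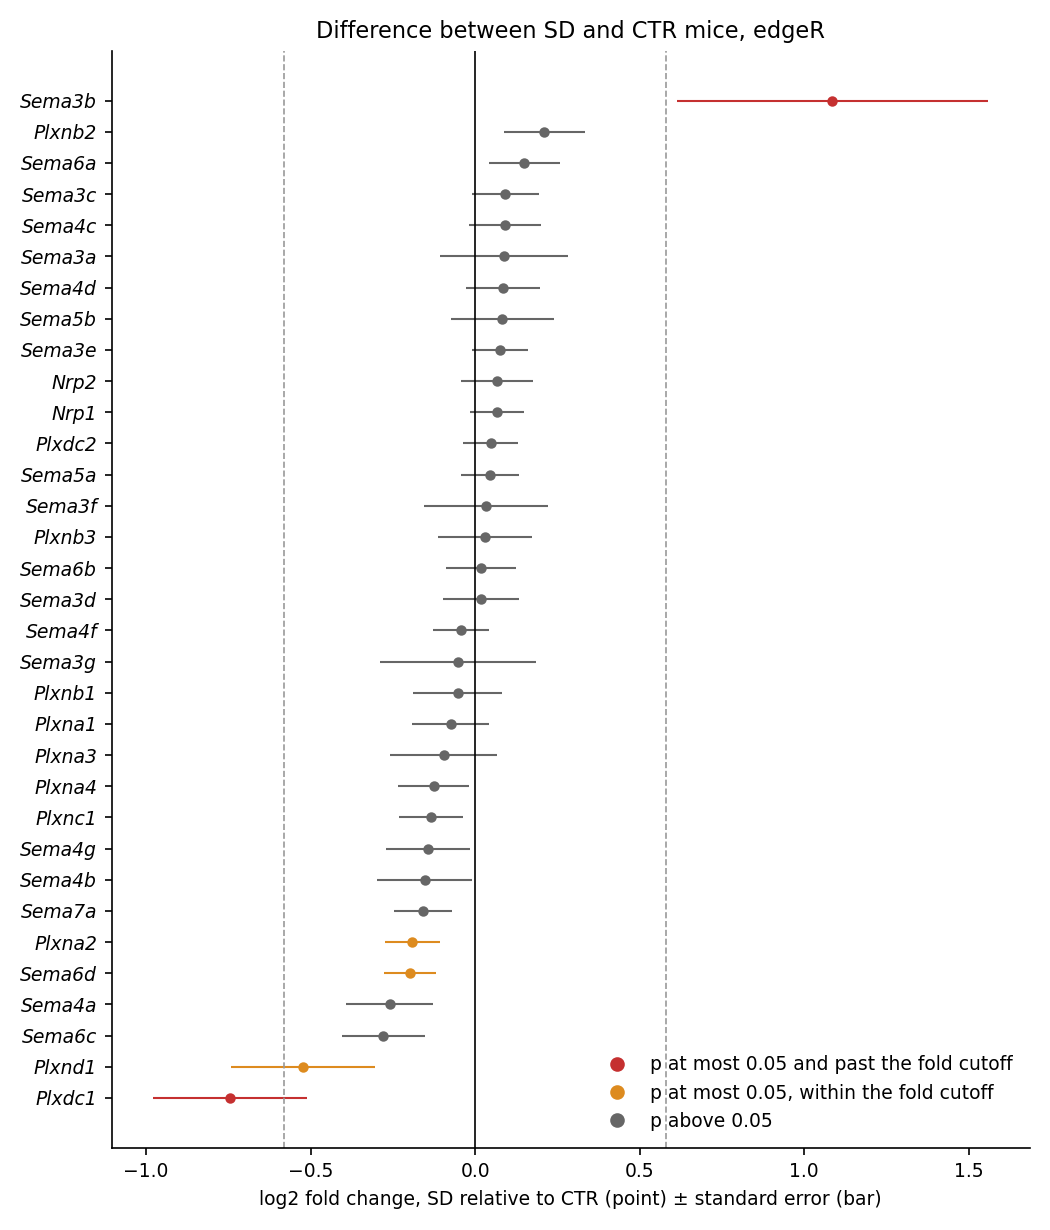
Log2 fold change of each of the 33 members, SD relative to CTR mice, with its standard error as a bar and dashed lines at the fold cutoff of 0.58. Sema3b at 1.09 and Plxdc1 at -0.74 lie past the cutoff, Plxnd1 at -0.52 lies just within it, and the members between them sit within 0.28 of 0.

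The libraries held 23300710 to 34447082 counts, and the members took 0.209% to 0.241% of them, with 42 to 8017 counts per member and mouse. Some mice stood apart in ways the groups do not define. By their counts of Xist and the Y-linked gene Ddx3y, CTR mouse 5 was female and all others were male, CTR mouse 1 had 1.84% of its counts in ribosomal precursor RNA (Rn45s) against at most 0.231% elsewhere, and CTR mouse 2 had the lowest level of choroid plexus genes. CTR mouse 1 was the highest mouse for 14 of the 33 members and for 6 of the 9 plexins, while CTR mouse 5 was the lowest for 10. The shares of all genes in which these mice were the highest or lowest were not counted. Values without single mice are given beside the members whose call or place past the p cutoff depends on them.

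Of the members separated between the groups, Sema6d and Plxna2 have a promoter in the RefSeq table of GRCm38.p6, the build that mm10 names, and these are printed because the light cycle was the treatment and the clock proteins CLOCK and BMAL1 bind the E-box. The windows run from 250 bases before to 50 after an annotated start, in lower case and 5′ to 3′, with the E-box letters CACGTG in capitals. The Sema6d window is chr2:124089719-124090018 on the plus strand, and its E-box begins 23 bases before the start. The Plxna2 window is chr1:194619579-194619878, also on the plus strand, and holds none. The Plxna2 span given below begins ahead of this window, at 194618218, and that end of the gene was not searched.
Sema6d: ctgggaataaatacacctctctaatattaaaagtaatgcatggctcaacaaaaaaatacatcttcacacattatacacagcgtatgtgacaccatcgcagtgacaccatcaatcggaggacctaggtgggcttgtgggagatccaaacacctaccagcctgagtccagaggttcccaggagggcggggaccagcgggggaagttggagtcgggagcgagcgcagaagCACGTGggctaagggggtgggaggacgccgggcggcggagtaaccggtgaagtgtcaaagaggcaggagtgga
Plxna2: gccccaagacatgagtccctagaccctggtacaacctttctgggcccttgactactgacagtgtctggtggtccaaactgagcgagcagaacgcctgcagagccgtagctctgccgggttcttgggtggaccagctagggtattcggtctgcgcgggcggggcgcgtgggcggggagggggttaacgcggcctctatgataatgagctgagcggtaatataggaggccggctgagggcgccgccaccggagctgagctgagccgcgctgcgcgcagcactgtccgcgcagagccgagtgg
The table matched 26 members with 37 windows, and 3 of these windows (8.11%), in Sema6d, Sema3e and Sema4b, hold the E-box, against 7.15% of all 32851 windows. CACGTG reads the same on both strands. The D-box letters TTATGTAA, bound by PAR bZIP factors of the clock and searched on both strands, are in none of the 37 and in 0.938% of all windows. A second annotated Sema6d start has a window without the E-box. Plxdc1, Plxdc2, Sema3b, Sema3f, Sema6a, Plxna1 and Plxna4 were not matched.

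Levels between genes are compared per length, as CPM divided by the exon length in kilobases (RPKM). Sema7a had the highest level of the family, at 37.7 RPKM over the 6 mice, followed by Sema6b at 33.1, Plxna1 at 23.0, Plxna4 at 16.2 and Plxnb1 at 14.4 RPKM. Beside an n, SD stands for the standard deviation, and elsewhere for the Short Day group. Of the 32 neighbouring pairs in this order 6 were apart by more than the larger of their SDs in both groups, among them Sema6b and Plxna1 as well as Plxna1 and Plxna4. The highest pair was so in CTR mice only. Sema7a was 39.8 ± 3.93 RPKM (SD, n = 3) and Sema6b 32.9 ± 4.02 RPKM in the CTR mice (SD, n = 3), and Sema7a was 35.6 ± 0.552 RPKM (SD, n = 3) and Sema6b 33.3 ± 2.86 RPKM in the SD mice (SD, n = 3). At the other end, the secreted semaphorins Sema3f, Sema3g and Sema3a were at 1.25, 0.703 and 0.509 RPKM. The 4 class A plexins together made up 18.8% of the summed level of all members, the 4 class 6 semaphorins 17.3% and the 7 secreted semaphorins 7.43%.

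**Figure D2:**
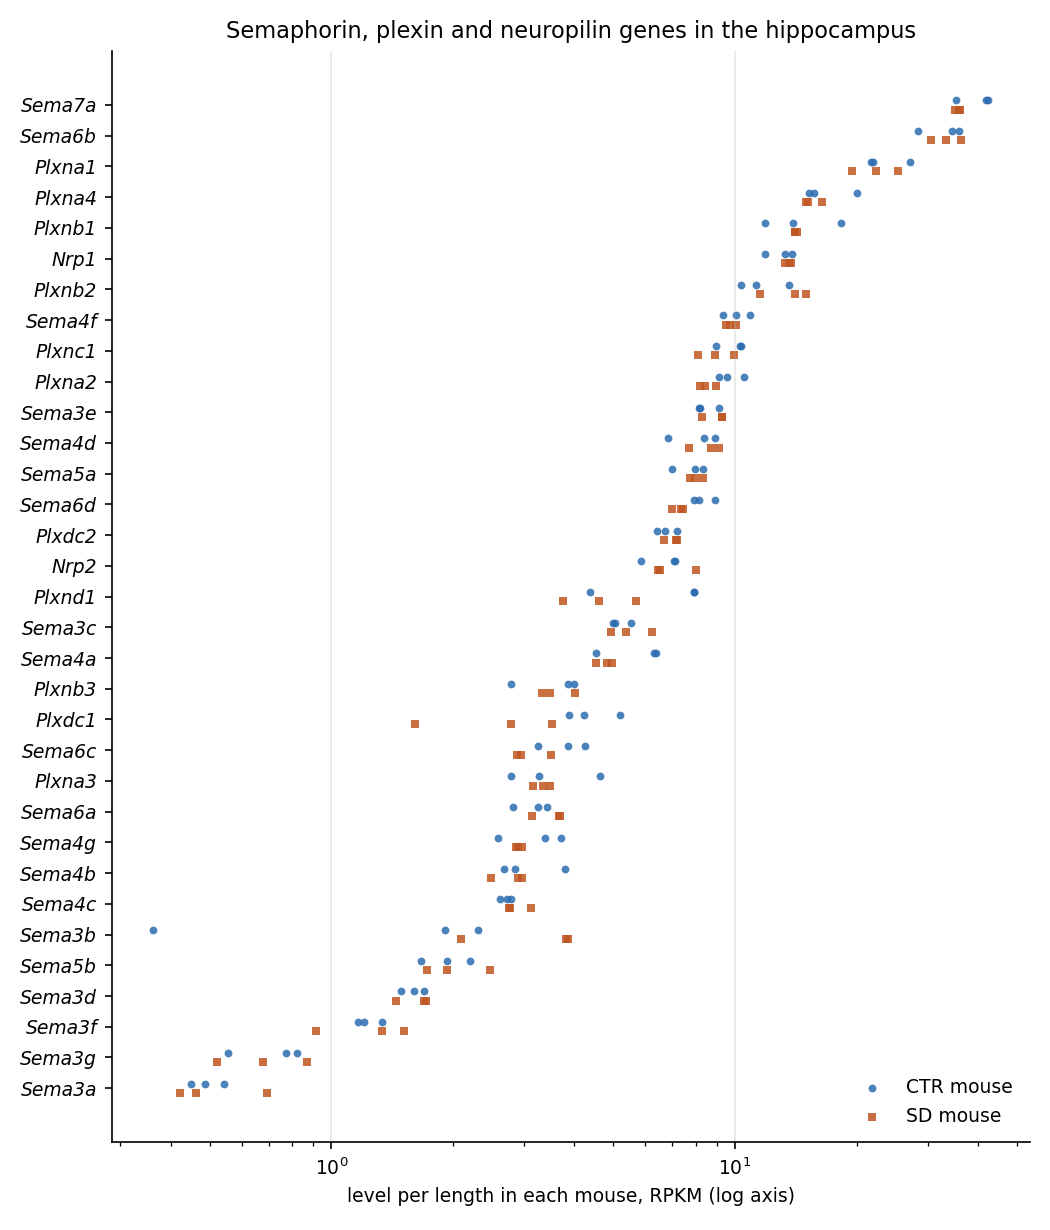
Level per length of each member in each mouse, in RPKM on a log axis, with circles for CTR and squares for SD mice. The family spans from 0.509 RPKM for Sema3a to 37.7 RPKM for Sema7a, and for most members the circles and squares interleave, with CTR mouse 2 alone at the left for Sema3b and SD mouse 2 alone at the left for Plxdc1.

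Among the 7 secreted ligands Sema3b was the one called. Sema3b, a repellent that signals through Nrp2 and is known from the choroid plexus of the embryo, lies on the minus strand of chromosome 9 of GRCm38 from 107597674 to 107609229. It had 9.16, 1.73 and 11.0 CPM in CTR mice 1, 2 and 5 and 10.0, 18.5 and 18.2 CPM in SD mice 2, 5 and 6. CTR mouse 2 was far below all others and SD mice 5 and 6 were above all others, but SD mouse 2 lay below CTR mouse 5, so the groups overlapped. Its mean was 2.13 times higher in SD mice, and its log2 fold change was 1.09 (standard error 0.47, edgeR adjusted p = 0.586, from 0.219 to 0.999 over all settings). It missed the p cutoff in DESeq2, and in edgeR without CTR mouse 1, SD mouse 5 or SD mouse 6, where its log2 fold changes were 1.26, 0.95 and 0.96. Without CTR mouse 2 it was 0.63 and the call held.

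The levels of Sema3b ran in the same order over the 6 mice as the summed level of 15 genes of the choroid plexus epithelium, which secretes cerebrospinal fluid. That sum was 2818, 427 and 4744 CPM in CTR mice 1, 2 and 5 and 4060, 11410 and 11290 CPM in SD mice 2, 5 and 6. The test called 13 of the 15 higher in SD mice, their median log2 fold change was 1.70, and none was at 0 in any mouse. The defining marker Ttr belongs to this list and so does Folr1. In whole tissue, more cells of a type and more RNA per cell cannot be told apart, and the part of the choroid plexus in the Sema3b result was not tested. Sema3f, the ligand of Nrp2 and Plxna3, lies 72.3 kb from Sema3b on the same chromosome and strand and was at a log2 fold change of 0.03, with 6.92, 6.27 and 6.04 CPM in CTR mice and 4.77, 7.88 and 6.95 CPM in SD mice.

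**Figure D3:**
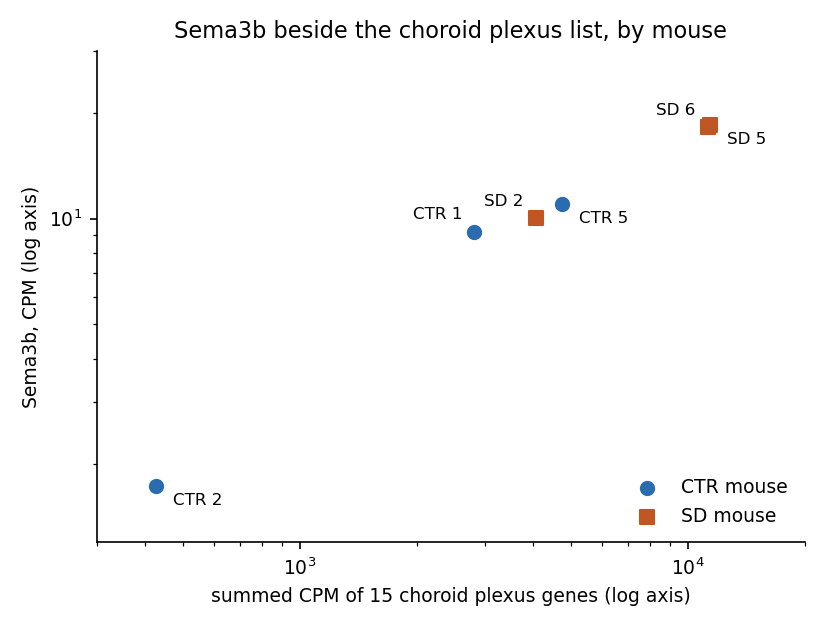
Sema3b in CPM against the summed CPM of 15 choroid plexus genes, 1 point per mouse, both on log axes. The 6 mice have the same order on both axes, from CTR mouse 2 at 427 and 1.73 CPM to SD mice 5 and 6 together at the upper right.

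The other secreted semaphorins were close to their CTR levels. Sema3e, the ligand that binds Plxnd1 without a neuropilin and the most abundant of its class, was 78.8 ± 5.16 CPM in the CTR mice (SD, n = 3) and 83.1 ± 5.40 CPM in the SD mice (SD, n = 3). For Sema3a, the collapsing factor first known by its action through Nrp1, the log2 fold change was 0.09 (standard error 0.20), and Sema3c, Sema3d and Sema3g were at 0.09, 0.02 and -0.05. Sema3d, Sema3a and Sema3e follow one another on chromosome 5 with gaps of 536.5 and 422.7 kb, and their log2 fold changes differed by less than their standard errors. Sema3a ranged from 5.85 to 9.62 CPM over the 6 mice, with SD mouse 2 the highest and SD mouse 6 the lowest.

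None of the 6 class 4 semaphorins was called, and 4 of them (66.7%) had a negative log2 fold change, against 49.6% of all genes tested. Sema4a, which binds plexins of classes B and D, had 34.4, 34.0 and 24.5 CPM in CTR mice 1, 2 and 5 and 26.1, 24.5 and 26.9 CPM in SD mice 2, 5 and 6. CTR mice 1 and 2 were above all SD mice, while CTR mouse 5 was the lowest of the 6. The log2 fold change of Sema4a was -0.26 (standard error 0.13, edgeR adjusted p = 0.642), and without CTR mouse 5 it was -0.41 and passed the p cutoff. Sema4d, the ligand of Plxnb1 that oligodendrocytes and immune cells express, was 61.7 ± 8.33 CPM in the CTR mice (SD, n = 3) and 65.4 ± 5.81 CPM in the SD mice (SD, n = 3). Log2 fold changes were -0.14 for Sema4g, which was at -0.03 without CTR mouse 2 and at -0.28, past the p cutoff, without CTR mouse 5, -0.15 for Sema4b, 0.09 for Sema4c, the ligand of Plxnb2, and -0.04 for Sema4f.

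The class 6 semaphorins bind class A plexins, and 1 of them, Sema6d, was the only one of the 20 semaphorins separated between the groups. The difference was small, and 12.3% of all genes were separated in either direction. Sema6d, a ligand of Plxna1, lies on chromosome 2 from 124089969 to 124667770 and had 94.3, 83.3 and 86.0 CPM in CTR mice 1, 2 and 5 and 73.8, 77.5 and 78.5 CPM in SD mice 2, 5 and 6. All 3 SD mice were below all 3 CTR mice, with a mean 12.9% lower. Its log2 fold change was -0.20 (standard error 0.08, edgeR adjusted p = 0.565), past the p cutoff and short of the fold cutoff, and -0.24 to -0.15 when each mouse was left out in turn. Without CTR mouse 1, SD mouse 2 or SD mouse 5 it also missed the p cutoff. Sema6c had 25.2, 22.9 and 19.3 CPM in CTR mice and 17.5, 17.2 and 20.8 CPM in SD mice, so only SD mouse 6 lay above a CTR mouse, and its log2 fold change was -0.28 (standard error 0.13, edgeR adjusted p = 0.601). Without CTR mouse 5 or SD mouse 6 that of Sema6c was -0.38 and passed the p cutoff, and with all mice it passed in DESeq2. Sema6b and Sema6a, the ligands of Plxna4 and Plxna2 on the mossy fiber path, had log2 fold changes of 0.02 and 0.15.

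Sema7a, which acts through integrins that contain Itgb1 and through Plxnc1, had 140, 138 and 116 CPM in CTR mice 1, 2 and 5 and 115, 119 and 118 CPM in SD mice 2, 5 and 6. CTR mice 1 and 2 were the highest, and CTR mouse 5 lay among the SD mice. The log2 fold change of Sema7a was -0.16 (standard error 0.09, edgeR adjusted p = 0.655), and without CTR mouse 5 it was -0.24 and passed the p cutoff. Its receptor Plxnc1 had 85.7, 74.9 and 86.4 CPM in CTR mice 1, 2 and 5 and 83.0, 67.7 and 74.4 CPM in SD mice 2, 5 and 6. The groups overlapped for Plxnc1, and its log2 fold change was -0.13 (standard error 0.10). Sema5a, a class 5 semaphorin, was 145 ± 13.4 CPM in the CTR mice (SD, n = 3) and 150 ± 5.25 CPM in the SD mice (SD, n = 3), and Sema5b of the same class had a log2 fold change of 0.08.

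Of the 9 plexins 7 (77.8%) had a negative log2 fold change and none was called. Over all genes tested 49.6% had a negative log2 fold change, and over the further pathway genes described below 61.5%. Without CTR mouse 1 the 7 plexins became 3, Plxna2, Plxnc1 and Plxnd1. Plxnd1, the receptor of Sema3e in blood vessels and in some neurons, lies on chromosome 6 from 115954811 to 115995005 and came closest to the cutoff. It had 57.8, 57.7 and 32.0 CPM in CTR mice 1, 2 and 5 and 41.6, 33.6 and 27.4 CPM in SD mice 2, 5 and 6. CTR mice 1 and 2 were above all SD mice, whereas CTR mouse 5, the female mouse, lay below SD mice 2 and 5. The log2 fold change of Plxnd1 was -0.52 (standard error 0.22, edgeR adjusted p = 0.575), past the p cutoff in edgeR but not in DESeq2. Without CTR mouse 5 it was -0.76 and without SD mouse 2 it was -0.69, and the gene was then called lower. Without CTR mouse 1, CTR mouse 2 or SD mouse 6 it was -0.39 and without SD mouse 5 it was -0.51, each time past neither cutoff. Its adjusted p-values in edgeR and DESeq2 ran from 0.108, without CTR mouse 5, to 1.0 over all settings. Sex was not tested, since only 1 mouse, CTR mouse 5, was female.

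All 4 class A plexins had a negative log2 fold change, from -0.19 to -0.07, as had 49.6% of all genes tested. Plxna2, the receptor of Sema6a and Sema5a on granule cells, lies on chromosome 1 from 194618218 to 194816869 and had 181, 164 and 156 CPM in CTR mice 1, 2 and 5 and 154, 141 and 145 CPM in SD mice 2, 5 and 6. All SD mice were below all CTR mice, with SD mouse 2 next to CTR mouse 5. Its log2 fold change was -0.19 (standard error 0.08, edgeR adjusted p = 0.586), past the p cutoff and short of the fold cutoff. It missed the p cutoff with total counts as scaling and without CTR mouse 1, CTR mouse 2, SD mouse 5 or SD mouse 6. Plxna4, a receptor of Sema6b and, with Nrp1, of Sema3a, had 282, 221 and 215 CPM in CTR mice and 212, 214 and 232 CPM in SD mice. CTR mouse 1 was the highest mouse for Plxna4, Plxna1 and Plxna3, and without it their log2 fold changes were 0.0047, 0.03 and 0.13, so the common direction rested on it for all but Plxna2, which was at -0.13. Plxna1 was 213 ± 27.9 CPM in the CTR mice (SD, n = 3) and 203 ± 25.9 CPM in the SD mice (SD, n = 3).

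The class B plexins, receptors of class 4 semaphorins that also activate RhoA through PDZ-RhoGEF and LARG, did not share a direction. Plxnb2 had 105, 79.8 and 86.8 CPM in CTR mice 1, 2 and 5 and 88.8, 109 and 116 CPM in SD mice 2, 5 and 6. SD mice 5 and 6 were above all CTR mice and SD mouse 2 was not, and the log2 fold change was 0.21 (standard error 0.12, edgeR adjusted p = 0.683). Without CTR mouse 1 it was 0.33 and without SD mouse 2 it was 0.31, both past the p cutoff. Plxnb1 had 176, 133 and 114 CPM in CTR mice and 135, 135 and 136 CPM in SD mice, so that the CTR mice lay on both sides of closely spaced SD mice, at a log2 fold change of -0.05 (standard error 0.14), or 0.13 without CTR mouse 1. Plxnb3, known from oligodendrocytes, had a log2 fold change of 0.03, and Sema4d was at 0.08 and Sema6a at 0.15, while 11 marker genes of oligodendrocytes had a median log2 fold change of 0.42 with 9 past the p cutoff. The summed level of these markers was 7195 to 9341 CPM in CTR mice and 9179 to 11100 CPM in SD mice, and their part in the values of the members was not tested.

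Both neuropilins, the ligand-binding partners of class A plexins, were near their CTR level. Nrp1, which binds Sema3a and vascular endothelial growth factor, had 135, 116 and 130 CPM in CTR mice and 130, 135 and 133 CPM in SD mice (log2 fold change 0.07, standard error 0.08). Nrp2, the receptor part for Sema3f and Sema3b, had 84.1, 69.3 and 83.7 CPM in CTR mice and 94.7, 76.5 and 77.2 CPM in SD mice (log2 fold change 0.07, standard error 0.11). The groups overlapped for both genes, with SD mouse 2 above all others for Nrp2.

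Plxdc1 was the member with the smallest p. It encodes a membrane protein also named tumor endothelial marker 7, which shares a plexin-like domain with plexins but is not a semaphorin receptor and is known as a receptor of pigment epithelium-derived factor. It lies on the minus strand of chromosome 11 from 97923238 to 97986444 and had 20.5, 25.1 and 18.8 CPM in CTR mice 1, 2 and 5 and 7.80, 17.0 and 13.5 CPM in SD mice 2, 5 and 6. All SD mice were below all CTR mice, SD mouse 2 by the most, and the mean was 40.6% lower. The log2 fold change of Plxdc1 was -0.74 (standard error 0.23, edgeR adjusted p = 0.514), and DESeq2 also called it, with an adjusted p of 0.11, the lowest of a range up to 1.0 over all settings. Without SD mouse 2 it was -0.49, short of the fold cutoff, and without CTR mice 1, 2 and 5 in turn it was -0.78, -0.62 and -0.83 and the call held.

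Plxdc1 is known from endothelium, and none of 14 markers of endothelial cells and pericytes was called, with a summed level of 348 to 390 CPM in CTR mice and 316 to 383 CPM in SD mice, with SD mouse 2 the lowest for the list as it was for Plxdc1. CTR mouse 2, the highest for Plxdc1, was also the highest for 15 genes of thalamic neurons. Their sum was 330 to 586 CPM in CTR mice and 296 to 386 CPM in SD mice. Neither list followed the order of Plxdc1 over the 6 mice. CTR mouse 2 was next to the lowest for the endothelial list, at 348 CPM. For the thalamic list SD mouse 2, at 386 CPM, was above CTR mouse 1, at 330 CPM. Of the thalamic genes 8 were called lower and none higher, and Gbx2 was at 0 in SD mouse 6. In CTR mice 1, 2 and 5 the neocortical list summed to 467, 486 and 432 CPM. In SD mice 2, 5 and 6 it summed to 398, 416 and 419 CPM. This was the order of Plxdc1 but for SD mice 5 and 6, and the list was picked after its values were seen. The astrocyte list summed to 7221, 6398 and 5416 CPM in CTR mice 1, 2 and 5. In SD mice 2, 5 and 6 it summed to 6297, 5926 and 5577 CPM. That was the order of Plxnd1 but for its lowest mice, SD mouse 6 and CTR mouse 5. The astrocyte list was also picked after its values were seen. The part of these cell types in the results for Plxdc1 and Plxnd1 was not tested. Plxdc2, the relative of Plxdc1, was 47.0 ± 2.77 CPM in the CTR mice (SD, n = 3) and 48.6 ± 2.06 CPM in the SD mice (SD, n = 3).

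Further calls and summed levels of the cell type lists were as follows. The test called 3 of 10 ependymal genes and 5 of 8 hypothalamic genes higher, 2 of 9 genes of the medial habenula and 2 of 11 neocortical genes lower, 1 of 9 striatal genes higher, and 1 higher and 1 lower of 14 genes of leptomeningeal fibroblasts. Only 8 of the 15 listed hypothalamic genes were in the count table, at a median of 1.22 CPM, and Avp, Oxt and Hcrt were among those absent. The hypothalamic sum was 5.65 to 9.66 CPM in CTR mice and 13.1 to 38.2 CPM in SD mice, with SD mouse 2, the lowest for Plxdc1, far above the rest. Summed levels in CTR and SD mice were 35.6 to 81.8 and 69.4 to 84.9 CPM for ependyma, 107 to 210 and 87.4 to 122 CPM for the habenula, 432 to 486 and 398 to 419 CPM for neocortex, 84.4 to 90.5 and 72.7 to 105 CPM for striatum, and 247 to 429 and 339 to 552 CPM for leptomeninges. Of the 11 oligodendrocyte genes 1 was called higher. None of the listed genes of astrocytes, microglia, oligodendrocyte precursors, GABAergic interneurons or hippocampal principal neurons was called. By the p cutoff alone, 2 precursor genes were higher, and 1 astrocyte gene and 1 interneuron gene were lower. All SD mice lay above all CTR mice in 5 of 11 oligodendrocyte and 3 of 10 precursor genes, against 6.11% of all genes. The part of these cell types in the values of the members was not tested.

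**Figure D4:**
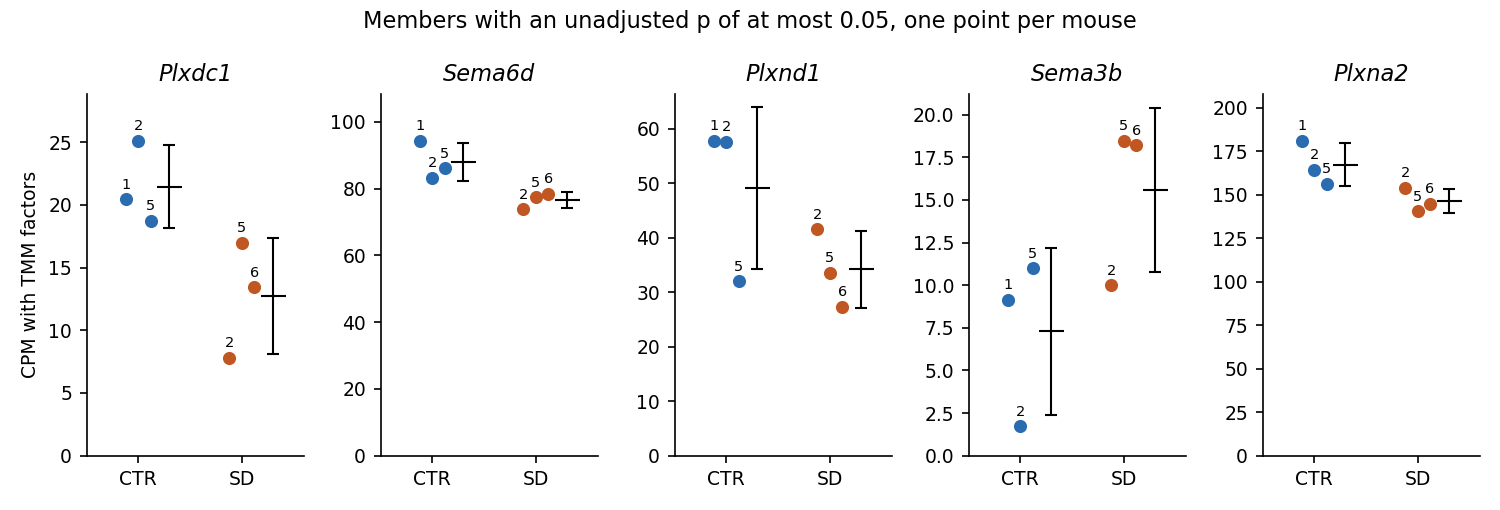
CPM of the 5 members past the p cutoff, 1 point per mouse with its number, and the mean with its SD beside each group, on axes that start at 0. Plxdc1, Sema6d and Plxna2 are separated, with all SD mice below all CTR mice, while CTR mouse 5 among the SD values of Plxnd1 and SD mouse 2 among the CTR values of Sema3b make those groups overlap.

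The pattern across single mice is shown in the plot of deviations by member and mouse. In CTR mouse 1 the plexins Plxna1, Plxna3, Plxna4 and Plxnb1 stood above the other mice together with Sema4b, and in CTR mouse 5 Plxna3, Plxnb1, Plxnb3 and Sema4d were the lowest.

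**Figure D5:**
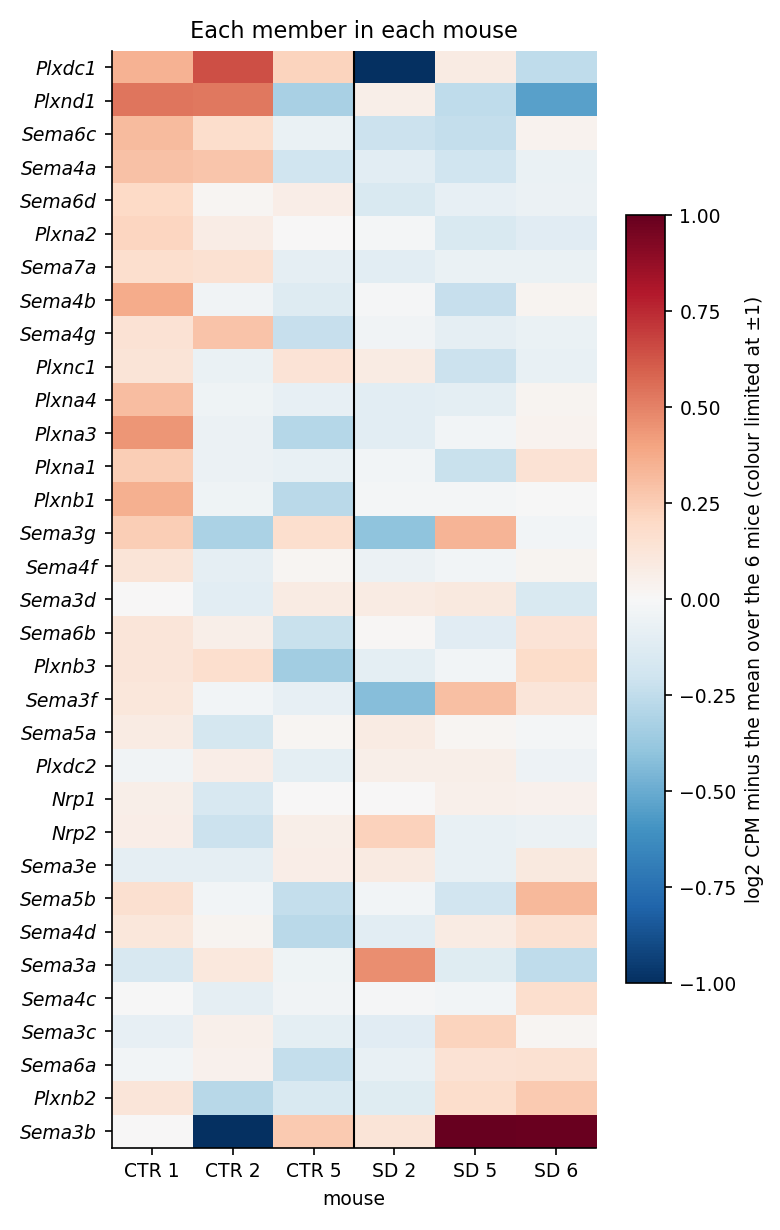
Log2 CPM of each member in each mouse minus its mean over the 6 mice, with rows ordered by log2 fold change and colour limited at ±1. Plxdc1 at the top and Sema3b at the bottom hold the strongest colours, and the column of CTR mouse 1 is mostly red (CTR mouse 1 was the highest mouse for 14 members).

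Of 67 further genes of the pathway, listed from textbook knowledge, 65 were measured and tested, and none was called in edgeR or DESeq2. By the p cutoff alone there was 1 in edgeR (1.54%), against 8.32% of all genes. In DESeq2 there were 3 (4.62%), against 7.61%, the others being Rap1a, a Rap GTPase gene, and Cntn2, a cell adhesion gene, both named after their values were seen. The median log2 fold change over the 65 was -0.04. The gene past the p cutoff in both was Rras2, of the R-Ras group on which plexins act as GTPase-activating proteins, with 21.0, 22.1 and 23.3 CPM in CTR mice and 25.1, 26.9 and 27.7 CPM in SD mice. All SD mice lay above all CTR mice for Rras2, and its log2 fold change was 0.27 (standard error 0.09, edgeR adjusted p = 0.553). Among co-receptors and alternative receptors the smallest p was that of Itgb1, the integrin chain that binds Sema7a, with 75.5, 79.4 and 78.8 CPM in CTR mice and 83.0, 96.3 and 85.1 CPM in SD mice. All SD mice lay above all CTR mice for Itgb1 too, its log2 fold change being 0.18 (standard error 0.08, edgeR adjusted p = 0.606). Among kinases and cytoskeletal effectors it was that of Nf1, a Ras GTPase-activating protein, whose SD mice were all below its CTR mice (log2 fold change -0.16, standard error 0.08). The other ligands of neuropilins, 5 growth factor genes of the VEGF family, had log2 fold changes from -0.15 to 0.02, and the smallest p was that of Vegfd, at -0.15 (edgeR adjusted p = 0.927). Over the 65 partners 7 (10.8%) were separated between the groups, 4 with SD mice above and 3 below, against 12.3% of all genes.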

How the data were processed

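Per the paper's methods the authors used Trim Galore on the reads, aligned to mm10 by HISAT2 with default parameters and ran featureCounts per gene for the reverse strand, multi-mapping reads included, and then deposited whole-number counts per gene and mouse. The processing notes also name SAMtools, Picard and DESeq2. The annotation and all versions were not given in the sources used here. Columns with the authors' own DESeq2 means, fold changes, p-values and adjusted p-values, and 3 sheets with subsets of them, were not used.

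Counts were tested in R 4.3.3 with edgeR 4.0.16 (filterByExpr, which kept 15345 of 15423 genes, TMM, glmQLFit, glmQLFTest), SD against CTR, 3 mice each, without covariate, as in the study's design. Standard errors were taken as the fitted log2 fold change over the root of its F value. P-values were adjusted by Benjamini-Hochberg over all genes tested. CPM carry TMM factors. RPKM used the union of GENCODE M21 exons (GRCm38), since the RefSeq table gives gene spans, and this may differ from the authors' gene models. The procedure was also tested on simulated data. Alternatives were DESeq2 1.42.0, other scaling, filters, thresholds, left-out mice and a replicate block. No pair of libraries agreed within sampling noise.

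The members, lists and cutoffs were chosen with earlier results of these data known. Described by values per mouse or group means are the members called, separated between groups, among the 10 of smallest p, the 5 of largest change or the 5 of highest level, or of highest mean CPM in their class; of the partners, those called and the smallest p of each list. Other members are given for completeness, among them Nrp2 and Sema3f with values per mouse and Sema3a with its range, outside these rules. Those named in the account of single mice were chosen after their values were seen.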

Additional observations from a re-analysis of the deposited data

How the results depend on the processing

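The members called numbered 2 in edgeR and 1 in DESeq2, which did not call Sema3b, and 1 to 3 when each mouse was left out in turn. Over all genes the calls numbered 457, and 242 to 707 with a mouse left out, the lowest without SD mouse 6 and the highest without CTR mouse 5. With a mean count of at least 50 there were 265, fewer genes being tested. Unadjusted p alone gave 5 members (1 to 9 with a mouse left out), 1277 genes and 1 pathway partner, and an adjusted p under 0.05 gave 0 members and 0 genes in edgeR, though 1 gene without CTR mouse 5 and 6 with the replicate block. The partner calls, 0 in the main test, were 0 to 1 with a mouse left out, the 1 call arising without CTR mouse 5 or without SD mouse 2.

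With the replicate block over the 4 mice whose numbers occur in both groups, 2 members and 314 genes were called. The same 4 mice without the block, an alternative chosen after seeing the data, gave 0 members and 160 genes. The deviations of equally numbered mice correlated at 0.208 and 0.116 across genes, and with these numbers alone the mice were not treated as paired. Leaving out Rn45s, also chosen after seeing the data, kept the calls at 2 members and 457 genes.

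DESeq2, other scaling and filters turned the direction of no member, while leaving out 1 mouse turned that of 17 of the 33, whose log2 fold changes were at most 0.154 in size. The causes of these shifts were not tested. With 3 mice a group, the median standard error of 0.116 over the members sets how small a difference could be seen.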
